A study of Mus musculus with 8 samples.

Results

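The epidermal growth factor (EGF) receptor family was followed in skin of mice given phosphate-buffered saline (PBS), bleomycin or celastrol. Its 10 genes were taken by symbol from a table of 24612 genes: the ligand genes Epgn, Areg, Hbegf, Egf, Btc, Ereg and Tgfa, and the receptor genes Egfr, Erbb2 and Erbb3. All 10 were in the table and all 10 passed the filter on low values. RNA was sequenced from 8 skin homogenates, 2 from PBS mice, 3 from bleomycin mice and 3 from celastrol mice, each a male of the strain labelled C57 BL/6 J whose treatment began at 6 weeks of age and ran for 21 days. PBS mice had 0.1 mL of PBS injected under the skin, and bleomycin mice had 0.1 units of bleomycin, a DNA-damaging drug used to model the skin fibrosis of systemic sclerosis. Celastrol, a triterpenoid from thunder god vine tested here against skin fibrosis, was given daily into the peritoneum at a dose of 1 mg/kg or 2 mg/kg. Which dose a mouse had, and whether celastrol mice also had bleomycin, is not in the labels. Where a library is named, its number is the one in its label.

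EGF receptor ligands are made as membrane-bound precursors, and proteases such as ADAM17 release them from the cell surface. A released ligand makes the receptor pair with another receptor of the family and switches on the MAP kinase pathway, which drives keratinocytes to divide and migrate. In skin the pathway governs growth of the epidermis, hair follicle cycling and wound closure. ERBB2 binds no ligand of its own and serves as a partner, and ERBB3 binds neuregulins and signals through its partner's kinase.

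In skin of bleomycin mice Epgn rose, at an adjusted p of 0.0493 in limma that passed in 8 of 19 alternatives, and Areg, Hbegf and Egf stood higher in every bleomycin library than in either PBS library without passing the test. Btc and Ereg stood lower in every bleomycin library, and Tgfa overlapped. Celastrol libraries shared the PBS libraries as their reference and lay on the same side of them for Epgn, Areg, Hbegf, Egf and Btc, while Ereg overlapped PBS. Of all genes tested, 12.0% stood wholly above PBS and 11.6% wholly below in bleomycin libraries. In celastrol libraries these shares were 13.2% and 13.7%. Values below are the deposited size-factor normalized values on a linear scale, and changes are log2 fold changes of the value plus a pseudocount of 1, with the standard error (SE) of a limma fit over all genes. A gene passed where its p, adjusted by Benjamini-Hochberg over 23185 genes, was below 0.05.

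Of the 10 genes, 4 are ligand genes that lie side by side on chromosome 5 of the mouse genome (mm10), in the order Epgn, Ereg, Areg and Btc. The stretch spans 376 kb and holds 6 genes of the table, the others being the noncoding genes Gm19610 and Gm19619. Epgn (91027464 to 91035215), Ereg (91074622 to 91093646) and Areg (91139599 to 91148432) lie on the plus strand, and Btc (91357261 to 91402994) on the minus strand, 209 kb beyond Areg. Because Epgn and Areg stood higher outside PBS and Btc lower, up to 250 bases before the start of each are shown for comparison. They come from RefSeq on GRCm38.p6. Windows were kept for 7 of the 10 genes, which does not mean that all the others lack an entry. The RefSeq start of Epgn lies 53 bases inside the gene as annotated in the deposited table, so those bases are left out and 197 are printed. Capitals mark matches, on either strand, to the AP-1 motif TGANTCA, the cyclic AMP response element TGACGTCA, the TATA box TATAAA, the SP1 motif GGGCGG and the TEAD motif GGAATG.
Epgn, chr5:91027267-91027463, plus strand: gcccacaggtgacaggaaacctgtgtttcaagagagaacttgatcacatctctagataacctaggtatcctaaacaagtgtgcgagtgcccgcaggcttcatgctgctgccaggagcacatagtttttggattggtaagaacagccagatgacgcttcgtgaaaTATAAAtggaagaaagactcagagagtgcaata
Areg, chr5:91139349-91139598, plus strand: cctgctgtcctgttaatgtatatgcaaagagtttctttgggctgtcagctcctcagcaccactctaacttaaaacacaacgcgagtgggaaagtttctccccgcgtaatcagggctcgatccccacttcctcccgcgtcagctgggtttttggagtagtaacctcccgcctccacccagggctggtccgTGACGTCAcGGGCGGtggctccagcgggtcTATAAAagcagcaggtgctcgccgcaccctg
Btc, chr5:91402995-91403244, minus strand: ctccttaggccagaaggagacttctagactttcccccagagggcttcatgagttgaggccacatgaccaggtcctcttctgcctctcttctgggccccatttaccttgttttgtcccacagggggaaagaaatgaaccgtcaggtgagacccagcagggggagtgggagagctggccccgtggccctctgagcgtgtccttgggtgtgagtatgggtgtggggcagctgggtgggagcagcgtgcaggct
The Areg window held a cyclic AMP response element at position -61 from the gene's start in the deposited table, an SP1 match at -52 and a TATA box at -31. Epgn held a TATA box at -33 from its start in that table, which is -86 from its RefSeq start, and the Btc window held none of the 5 motifs. The window of Egf, not printed, also held none of the 5, although Egf stood higher outside PBS as Epgn and Areg did. Of the other windows not printed, those of Tgfa and Egfr held SP1 matches and that of Erbb2 a TEAD match. The background was 32851 windows of 250 bases, and not all windows of the source were kept. Of these 32851, 1.55% held the cyclic AMP response element, 12.4% the TATA box and 32.7% the SP1 motif. The AP-1 motif was in 6.75% and the TEAD motif in 12.6%. A match is a run of letters and not a measured binding site.

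Levels can be compared between genes only per length, here per kilobase (kb) of annotated exon. In PBS skin Btc stood at 712 to 991 per kb and Ereg at 493 to 722, and their order differed between the libraries. Ereg led the ligands in PBS 2, at 722 per kb against 712 for Btc. Btc led in PBS 3, at 991 against 493 for Ereg. Tgfa stood at 111 to 115 per kb, above Areg at 74.4 to 78.1. Areg and Epgn, the latter at 34.2 to 77.4 per kb, overlapped. Hbegf at 12.8 to 25.03 and Egf at 11.1 to 14.7 per kb were the lowest and also overlapped. In bleomycin skin the order differed between libraries. Btc led in Bleomycin 2 at 455 per kb and in Bleomycin 4 at 416, and Areg led in Bleomycin 3 at 628. Areg was 163 per kb in Bleomycin 2 and 291 in Bleomycin 4. Ereg lay between 333 and 449.9 per kb, Epgn between 179 and 338 and Tgfa between 112 and 143. The ranges of Ereg, Btc, Areg and Epgn overlapped, with Hbegf at 35.8 to 105 and Egf at 20.1 to 30.2 per kb below them. With the longest transcript as the length, the median over all 8 libraries moved from 70.3 to 118 per kb for Hbegf, from 129 to 185 for Tgfa and from 29.3 to 69.4 for Egf.

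Summed over the 7 ligands, the value per kb was 1740.2 in PBS 2 and 1732 in PBS 3, lay between 1351 and 1869 in bleomycin libraries and between 1861 and 1972 in celastrol libraries. Btc, Ereg and Tgfa together held 89.0% of that sum in PBS 2 and 92.1% in PBS 3. They held 69.8% in Bleomycin 2, 45.5% in Bleomycin 3 and 53.8% in Bleomycin 4. In Celastrol 2, Celastrol 3 and Celastrol 5 they held 55.9%, 64.4% and 72.1%. Areg alone went from 4.28% and 4.51% of the sum in the PBS libraries to between 12.0% and 33.6% in bleomycin libraries. Btc went from 40.9% and 57.2% to between 13.8% and 33.6%. No library outside PBS reached the PBS share of the Btc, Ereg and Tgfa trio. The trio is what remains after Epgn, Areg, Hbegf and Egf, which stood above PBS in every treated library. Its lower share there follows in part from that grouping. Within the trio, Tgfa held 6.41% and 6.61% in PBS libraries and 6.14% to 10.1% in the others. Ereg held 28.5% and 41.5% in PBS, 20.8% to 26.0% in bleomycin and 30.4% to 38.9% in celastrol libraries. These shares are a description of how the values divide and were not tested.

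**Figure D1:**
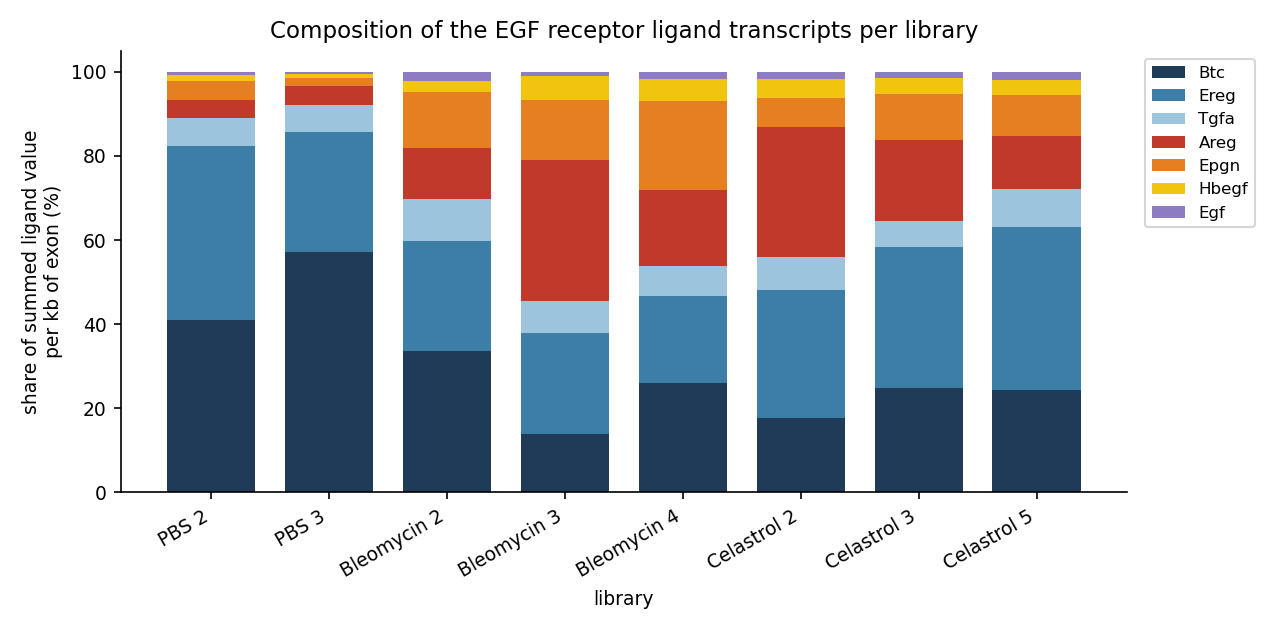
Stacked bars give, for each of the 8 libraries on the horizontal axis, the percentage of the summed ligand value per kb of exon held by each of the 7 ligands. The blue segments (Btc, Ereg, Tgfa) fill 89.0% and 92.1% of the PBS bars and between 45.5% and 72.1% of the others.

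Epigen, encoded by Epgn, is a ligand of low affinity that gives long-lasting receptor signals. Its value was 139.8 in PBS 2 and 61.8 in PBS 3. In Bleomycin 2, Bleomycin 3 and Bleomycin 4 it was 324, 479.7 and 609.9. Every bleomycin library was above both PBS libraries, and Epgn rose by 2.28 ± 0.44 (SE) in limma (adjusted p = 0.0493), from 101 ± 55.2 (SD, n = 2) to 471 ± 143 (SD, n = 3). It was the only one of the 10 genes to pass in this comparison, in which 0.677% of all genes tested passed. The call lay close to the threshold and rested on single libraries: without PBS 3 the limma change was 1.70 (adjusted p = 0.391), without Bleomycin 3 it was 2.25 (adjusted p = 0.164) and without Bleomycin 4 it was 2.07 (adjusted p = 0.278). It was also not called without Celastrol 2, Celastrol 3 or Celastrol 5, at limma adjusted p of 0.0532, 0.0637 and 0.0977. These libraries enter the estimate of the spread and the filter on low values, and not the group means compared. Over all 19 alternatives the limma adjusted p ran from 0.00323 to 0.391.

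In Celastrol 2, Celastrol 3 and Celastrol 5 Epgn was 233, 386 and 331, each above both PBS libraries. The change from PBS was 1.73 ± 0.44 (limma, adjusted p = 0.104). Against bleomycin the change was -0.56 ± 0.39 (limma, adjusted p = 0.975), with a 95% interval from -1.42 to 0.31 and overlapping libraries. At the estimated read depth, Epgn rested on between 56 and 830.0 reads per library.

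Areg encodes amphiregulin, a ligand made by keratinocytes and by immune cells in injured tissue. It was nearly equal in the PBS libraries, at 90.4 in PBS 2 and 94.9 in PBS 3. In bleomycin skin it was 198 in Bleomycin 2, 763 in Bleomycin 3 and 353 in Bleomycin 4, so that the groups did not overlap but the bleomycin libraries spread widely. In celastrol skin it was 702.5 in Celastrol 2, 466 in Celastrol 3 and 285 in Celastrol 5. The limma change was 2.01 ± 0.54 against PBS for bleomycin (adjusted p = 0.182) and 2.28 ± 0.54 for celastrol (adjusted p = 0.0808). Neither passed, and both passed without Bleomycin 2 (2.47, adjusted p = 0.0481, and 2.28, adjusted p = 0.0319, in limma). Between celastrol and bleomycin the limma change was 0.27 ± 0.49 (adjusted p = 0.988), with a 95% interval from -0.81 to 1.34. Without Bleomycin 2 it was -0.20 and without Celastrol 2 it was -0.05.

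Hbegf encodes heparin-binding EGF, a ligand that drives keratinocyte migration in wounds, and lies on the minus strand of chromosome 18 (36504927 to 36515805). It was 121 in PBS 2 and 61.8 in PBS 3. Bleomycin 2 stood lowest of its group at 173, with Bleomycin 3 at 507 and Bleomycin 4 at 396. The celastrol libraries were closer together, at 404, 363 and 317. All 6 treated libraries were above both PBS libraries. The limma change against PBS was 1.90 ± 0.48 for bleomycin (adjusted p = 0.147) and 2.04 ± 0.48 for celastrol (adjusted p = 0.0789). As with Areg, both passed without Bleomycin 2 (2.36, adjusted p = 0.0296, and 2.04, adjusted p = 0.0268, in limma), and the change between celastrol and bleomycin went from 0.14 ± 0.43 (adjusted p = 0.996) to -0.32.

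Egf, the founding ligand of the family, is made in mice above all in salivary gland and kidney, and lies on the minus strand of chromosome 3 (129677565 to 129755316). It was 166 in PBS 2 and 125 in PBS 3. The bleomycin libraries gave 340.0, 226 and 329.8, and the celastrol libraries 374, 331 and 402. Both treated groups lay wholly above PBS and overlapped each other. The limma change against PBS was 1.03 ± 0.33 for bleomycin (adjusted p = 0.334) and 1.35 ± 0.33 for celastrol (adjusted p = 0.0898). Egf shares 500 exon bases with 6330410L21Rik on the opposite strand, which reached at most 65.1, and whether the authors counted by strand is not given in the sources used here.

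**Figure D2:**
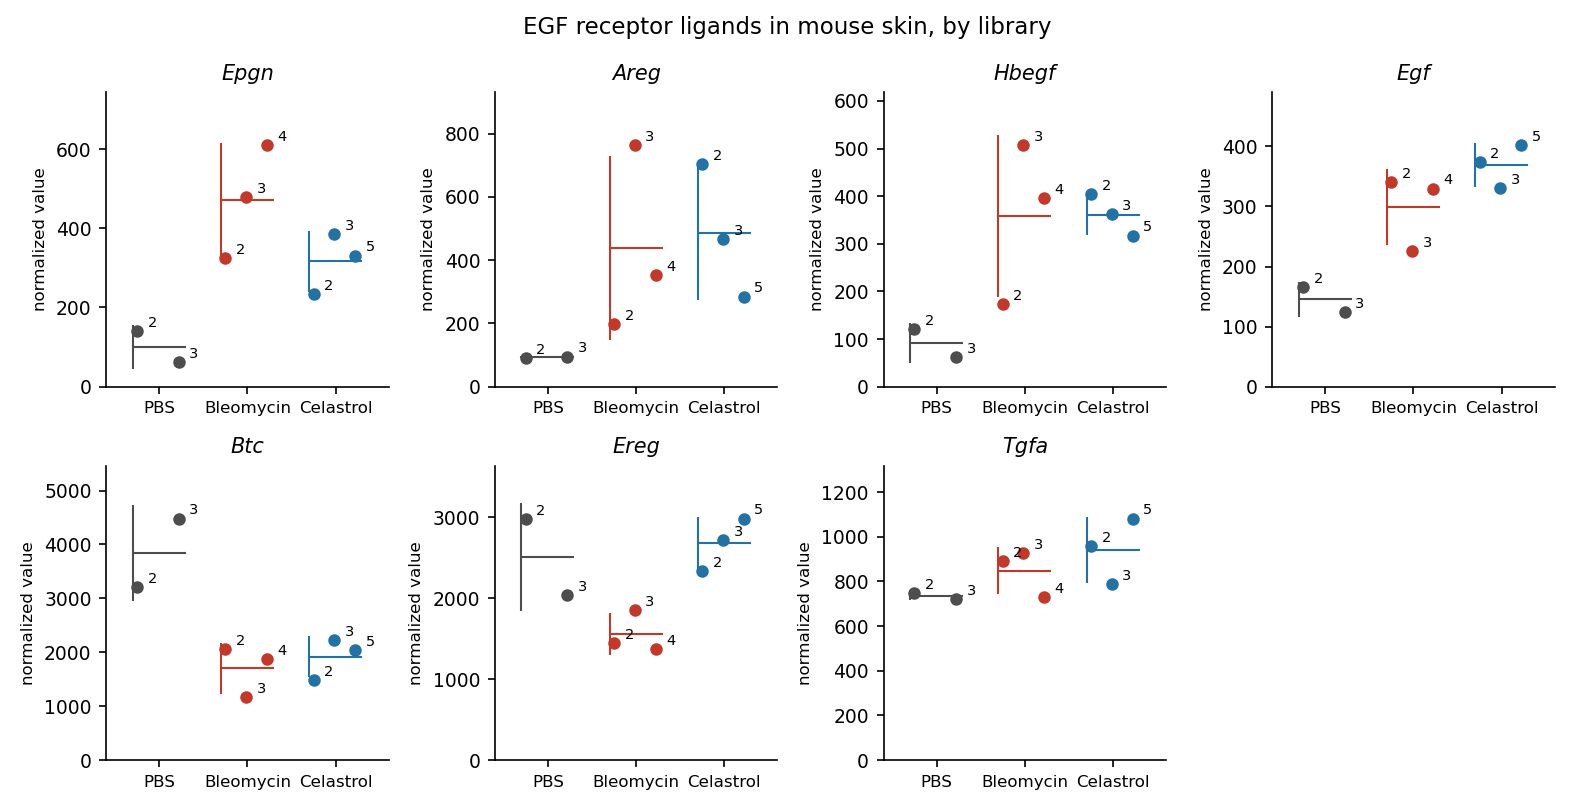
Each panel plots the normalized value of a ligand gene (vertical axis, linear from 0) in the PBS, bleomycin and celastrol libraries. Points are libraries with their label number, horizontal lines are means and vertical lines show ± 1 SD. Epgn, Areg, Hbegf and Egf are above both PBS libraries in all 6 treated libraries, Btc is below both, and Ereg is lower in the bleomycin group alone.

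Btc encodes betacellulin, which binds both EGFR and ERBB4. It was 3217 in PBS 2 and 4479.6 in PBS 3. In bleomycin skin it was 2054, 1165 and 1882, and in celastrol skin 1490.4, 2220.1 and 2047. None of the 6 treated libraries reached the lower PBS library. The limma change against PBS was -1.20 ± 0.28 for bleomycin (adjusted p = 0.101) and -1.004 ± 0.28 for celastrol (adjusted p = 0.142), so that Btc did not pass in either. Between celastrol and bleomycin the limma change was 0.20 ± 0.25 (adjusted p = 0.980), with a 95% interval from -0.35 to 0.75.

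Ereg encodes epiregulin, a ligand of EGFR and ERBB4 that is released in inflamed and wounded epithelia. It was 2980.0 in PBS 2 and 2037 in PBS 3. In Bleomycin 2, Bleomycin 3 and Bleomycin 4 it was 1451, 1857 and 1373, all below PBS. In Celastrol 2, Celastrol 3 and Celastrol 5 it was 2342, 2716 and 2986, all above every bleomycin library and overlapping PBS. The limma change was -0.67 ± 0.22 for bleomycin against PBS (adjusted p = 0.362), 0.79 ± 0.20 for celastrol against bleomycin (adjusted p = 0.975) and 0.11 ± 0.22 for celastrol against PBS (adjusted p = 0.887). Its unadjusted limma p of 0.00229 between celastrol and bleomycin was the 25th smallest of 23185 genes, and none of these passed. The change between celastrol and bleomycin kept its sign under all 19 alternatives, from 0.62 to 1.08. Ereg shares 141 exon bases with Gm19610 on the opposite strand, which reached at most 11.1.

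Tgfa encodes transforming growth factor alpha, an autocrine ligand of keratinocytes whose loss gives mice wavy hair. It varied least of the ligands, by 1.5-fold between the lowest and highest library. PBS 2 and PBS 3 gave 747 and 721, the bleomycin libraries 889.7, 927 and 729.7, and the celastrol libraries 959, 786 and 1081. Bleomycin and PBS libraries overlapped. The limma change against PBS was 0.20 ± 0.22 for bleomycin (adjusted p = 1), with a 95% interval from -0.29 to 0.69, and 0.35 ± 0.22 for celastrol (adjusted p = 0.595).

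**Figure D3:**
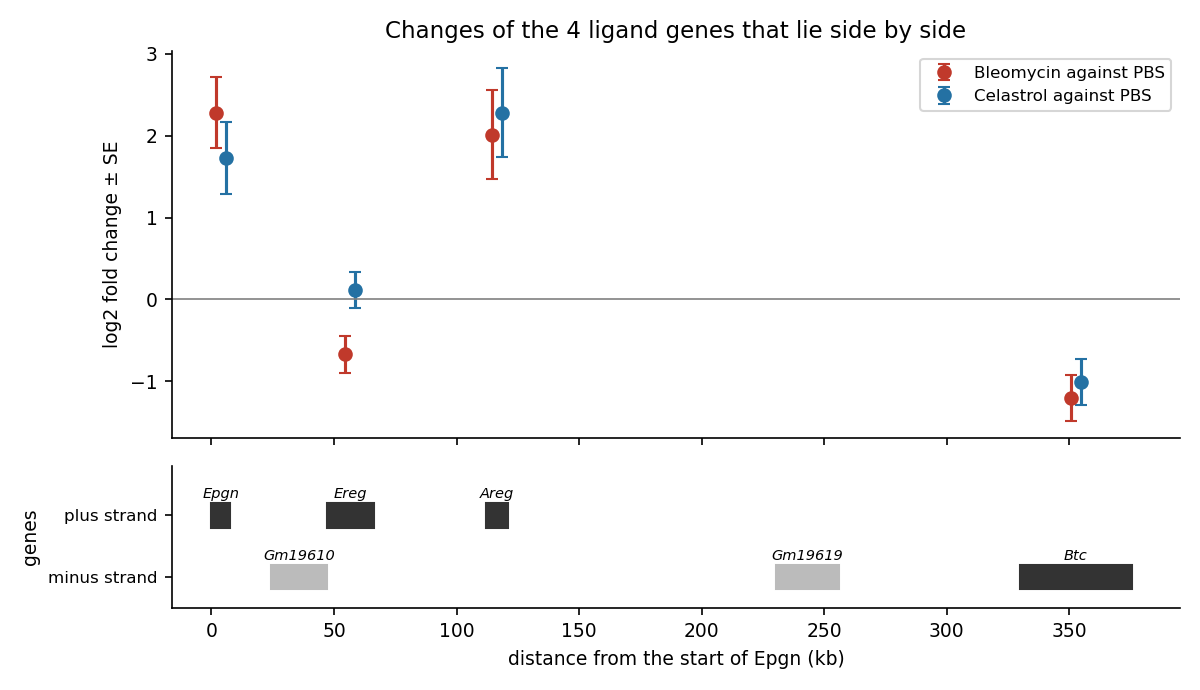
The upper panel plots the log2 fold change ± SE against PBS of the 4 ligand genes of chromosome 5, at their distance in kb from the start of Epgn, for bleomycin and celastrol. The lower panel draws the 6 genes of the stretch to scale on their strands. Epgn at 2.28 and Areg at 2.01 lie on both sides of Ereg at -0.67 in the bleomycin comparison, and Btc lies at -1.20.

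Among the receptors in PBS skin, Egfr stood at 839 to 954 per kb, Erbb3 at 544 to 884 and Erbb2 at 169 to 393. Erbb3 was above Egfr in PBS 2, at 884 against 839 per kb. In PBS 3 Egfr was above Erbb3, at 954 against 544. Egfr, the receptor of all 7 ligands, lies on the plus strand of chromosome 11 (16752203 to 16918158). Its normalized value was 9502 in PBS 2 and 10809 in PBS 3. It was 7022, 7263 and 7158 in bleomycin skin, and 7323, 7814 and 6475 in celastrol skin. All 6 treated libraries lay below both PBS libraries. The limma change against PBS was -0.50 ± 0.15 for bleomycin (adjusted p = 0.289) and -0.50 ± 0.15 for celastrol (adjusted p = 0.197). Between celastrol and bleomycin the limma change was 0.01 ± 0.14, with a 95% interval from -0.30 to 0.31.

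Erbb2 and Erbb3 were highest in the 3 libraries numbered 2, whatever their group. Erbb2 (chromosome 11, 98412470 to 98437716, plus strand) was 2048 in PBS 2, 1813 in Bleomycin 2 and 1101 in Celastrol 2, and between 634 and 882 in the other 5 libraries. Erbb3 (chromosome 10, 128567523 to 128589652, minus strand) was 5317 in PBS 2, 5122 in Bleomycin 2 and 4909 in Celastrol 2, and between 2659 and 3610.3 in the others. The pattern was noticed after the values were seen. All 3 libraries numbered 2 exceeded all others in 4.72% of genes tested and fell below all others in 4.03%. The summed keratinocyte markers were also highest in these 3 libraries. The basal list was 197737 in PBS 2, 234651 in Bleomycin 2 and 212243 in Celastrol 2, and at most 193682 elsewhere. The differentiated list was 369815, 338975 and 310193 in those libraries and at most 304046 elsewhere. Most single markers did not share this pattern. In the basal list Krt5, Itgb4 and Col17a1 did, and Krt14, Krt15, Itga6, Trp63 and Dst did not. In the differentiated list only Lor did. The part of keratinocytes in the values of Erbb2 and Erbb3 was not tested, and the labels do not say that the number marks a batch. The groups overlapped for both receptors, and the limma changes against PBS were -0.57 ± 0.48 and -0.27 ± 0.32 for bleomycin (adjusted p = 1 for both). Without PBS 2 they were 0.04 and 0.08.

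**Figure D4:**
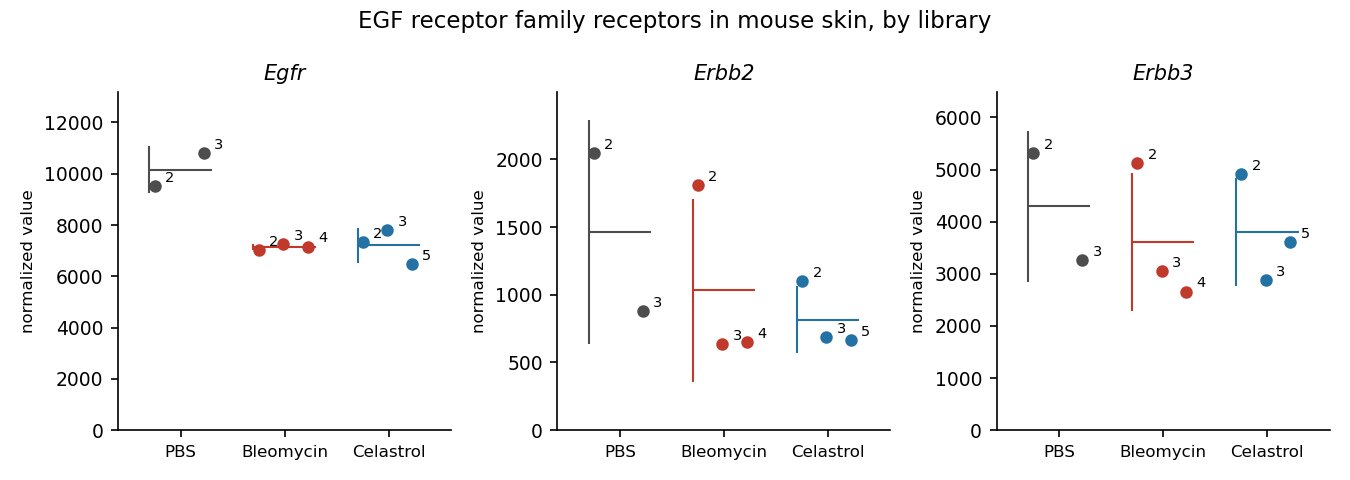
The panels plot the normalized values of Egfr, Erbb2 and Erbb3 (vertical axis, linear from 0) by group, with points as libraries carrying their label number, lines for means and vertical lines for ± 1 SD. Egfr lies between 6475 and 7814 outside PBS, and the libraries numbered 2 are the highest of their group for Erbb2 and Erbb3.

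For the 10 genes together, bleomycin against PBS gave 1 gene that rose, 0 that fell and 9 that did not pass, with a median change of -0.03 beside -0.00 over all genes tested. Every bleomycin library was above every PBS library for 4 of the 10 (Epgn, Areg, Hbegf, Egf) and below for 3 (Ereg, Btc, Egfr), where 12.0% and 11.6% of all genes tested did so. Celastrol against PBS gave 0 of 10 in limma, where 1.37% of all genes tested passed, with a median change of 0.23 beside -0.07 over all genes. Of the 10, 5 lay wholly above PBS (Epgn, Areg, Hbegf, Egf, Tgfa) and 2 wholly below (Btc, Egfr), where 13.2% and 13.7% of all genes did so. Celastrol against bleomycin gave 0 of 10, and 0% of all 23185 genes passed in limma, with 898 genes at an unadjusted p under 0.05. In that comparison 1 of the 10 genes, Ereg, lay wholly above and 0 wholly below, where 4.13% and 4.59% of all genes did so. The 10 genes were chosen with earlier results of these data known, so their counts beside the shares of all genes are a description. Groups of 2 and 3 libraries give wide intervals. Each p-value weighs a change against the spread between these libraries, an estimate that limma draws towards a trend over all genes.

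**Figure D5:**
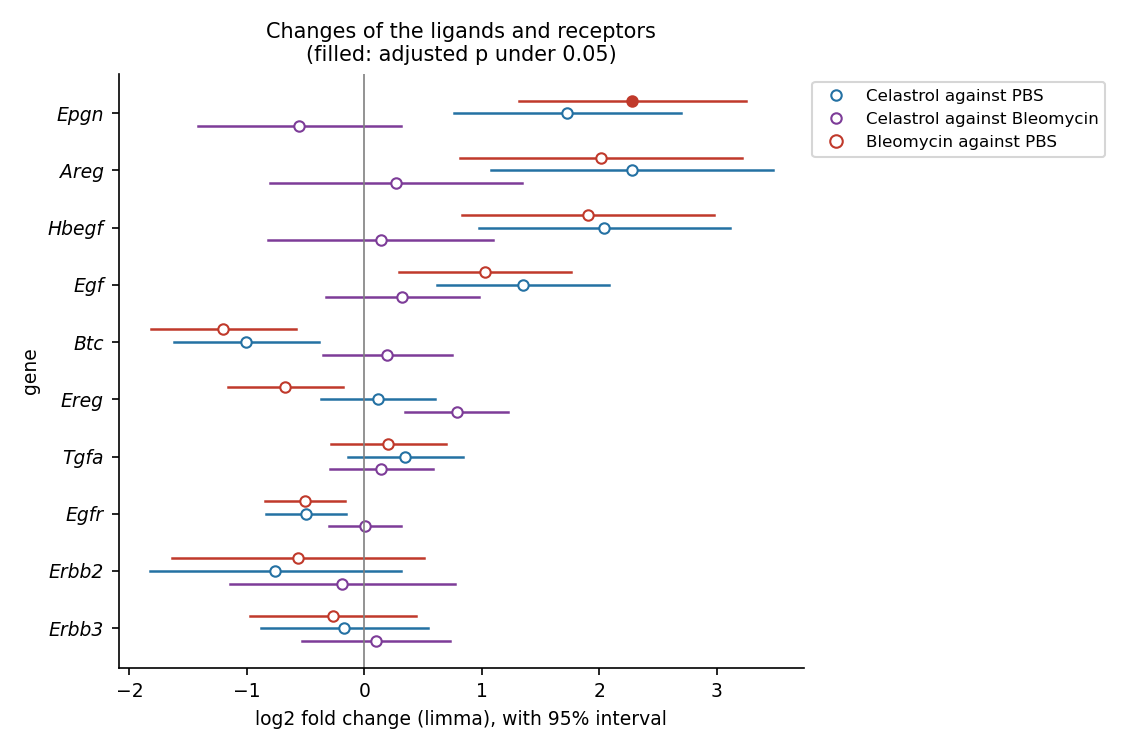
Points are limma log2 fold changes with 95% intervals (horizontal axis) of the 10 genes (vertical axis) in the 3 comparisons, filled where the adjusted p was below 0.05. Epgn in bleomycin against PBS, at 2.28, is the filled point.

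Other genes of the pathway were taken from 5 lists. Among family genes beyond the 10, 4 of 5 were in the table and 0 passed in any comparison. Nrg1, which encodes the neuregulin that binds ERBB3 and ERBB4, was 87.6 and 47.4 in the PBS libraries, 123, 532 and 268 in the bleomycin libraries and 263, 194 and 226 in the celastrol libraries. It lay above PBS in all 6, with a limma change of 1.99 ± 0.58 for bleomycin (adjusted p = 0.241) and 1.79 ± 0.58 for celastrol (adjusted p = 0.219). Nrg4, a further ERBB4 ligand, had a limma change of -0.61 for bleomycin (adjusted p = 1) and 0.33 for celastrol against bleomycin (adjusted p = 0.984). Erbb4, the remaining receptor of the family, had group means between 52.8 and 64.3.

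Of 12 genes for shedding and trafficking of the ligands, 0 passed in any comparison, with medians of -0.03 for bleomycin and -0.34 for celastrol against PBS. The median over all genes in the celastrol comparison was -0.07. The metalloprotease gene Adam9 had a limma change of 0.38 ± 0.17 for bleomycin (adjusted p = 0.690) and 0.49 for celastrol (adjusted p = 0.253). Timp3, an inhibitor of metalloproteases including ADAM17, stood at -0.32 for bleomycin (limma, adjusted p = 1). Adam15 stood at -1.17 ± 0.42 for celastrol against bleomycin (limma, adjusted p = 0.975). Of 28 signal transducers 0 passed in any comparison, and the smallest p for bleomycin against PBS belonged to the kinase subunit gene Pik3r1 at 0.38 (limma, adjusted p = 0.934), followed by Map2k1, another MAP kinase kinase gene, at 0.42 (adjusted p = 1). Map2k2, a MAP kinase kinase, stood at -1.11 for celastrol against bleomycin and -1.04 against PBS (limma, adjusted p = 0.975 and 0.308).

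Of 26 feedback inhibitors 0 passed in any comparison, with a median of -0.19 for bleomycin against PBS. Dusp6, a phosphatase that ends ERK signalling, was 812 and 572 in PBS, 1141, 1371 and 1085 in bleomycin and 1302, 1092 and 1430.2 in celastrol libraries. All 6 were above PBS, with a limma change of 0.81 ± 0.23 for bleomycin (adjusted p = 0.219) and 0.89 ± 0.23 for celastrol (adjusted p = 0.107). Zfp36, which destabilizes AU-rich transcripts, stood at 1.23 ± 0.42 for bleomycin (limma, adjusted p = 0.430), and Rnf41, a ligase that lowers ERBB3 protein, at -0.49 for celastrol against bleomycin (limma, adjusted p = 0.975).

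Of 26 transcripts that rise after EGF receptor stimulation in cultured cells, 1 rose for bleomycin against PBS, 0 fell and 25 did not pass. Of all genes tested 0.677% passed, and the median change of the list was 0.54. Many of its genes also respond to other stimuli. Dusp1, a MAP kinase phosphatase, rose by 1.74 ± 0.30 (limma, adjusted p = 0.0331). Fos, a subunit of AP-1, was 237 and 171 in PBS and 2804, 1180.3 and 956 in bleomycin libraries (limma change 2.86 ± 0.61, adjusted p = 0.0746). In celastrol libraries Fos was 620.4, 1059 and 217, overlapping PBS, and its limma change against bleomycin was -1.49 ± 0.54 (adjusted p = 0.975). For celastrol against PBS 0 of 26 passed, and Dusp1 stood at 1.11 ± 0.30 (limma, adjusted p = 0.139).

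Among the genes whose pattern over the 8 libraries was most like that of Epgn, out of 13075 genes, were Sirpb1c, Cybb, Samhd1 and Itgam, with Pearson r between 0.96 and 0.98. Cybb and Itgam are best known from phagocytes, and the macrophage marker list below holds Itgam. Spearman rho lay between 0.88 and 0.95, and without Celastrol 2 Pearson r lay between 0.96 and 0.98. These genes were picked for their r, and the 8 points include the low PBS libraries, so the values are a description.

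Markers of some other cell types moved with the groups beside these genes. Against PBS, 0.677% of all genes tested passed for bleomycin and 1.37% for celastrol. None of the tested genes passed in the lists for hair follicle, adipocytes, mast cells and basophils, T and NK cells, melanocytes and nerve. Of 13 hair follicle genes only 6 were in the table and 5 were tested, with Krt25 and Krt27 at 0 in 6 libraries and Krt28 in 3. That list says little about hair follicles. Of 6 melanocyte genes 5 were tested, and Slc45a2 was at 0 in 5 libraries. In the endothelial list Tek alone passed, lower for celastrol against PBS. As a check of the skin label, 8 basal keratinocyte markers, none at 0, summed to between 143995 and 234651 per library, highest in the 3 libraries numbered 2, and 0 of 8 passed in any comparison. Of 10 differentiated keratinocyte markers, none at 0, only Flg passed, at 1.81 ± 0.25 for bleomycin (adjusted p = 0.0144 in limma) and 2.40 ± 0.25 for celastrol (adjusted p = 0.00379) against PBS. Wound keratinocyte markers summed to between 3713 and 10460.3 in PBS, between 19141 and 161082 in bleomycin and between 58030.3 and 101348 in celastrol libraries, and 2 of 11 rose for bleomycin and 5 of 11 for celastrol against PBS. In this list S100a8, S100a9 and Sprr2d were at 0 in 1 library each and Il24 in 2. Fibroblast markers summed to between 366848 and 773873 in PBS, between 36001 and 110835 in bleomycin and between 33687 and 83181 in celastrol libraries, and 7 of 11 fell for bleomycin and 8 of 11 for celastrol, none being at 0. Macrophage markers summed to between 19889 and 22128 in PBS, 22394 and 29413 in bleomycin and 17798 and 27108 in celastrol libraries, and 2 of 9 rose in each comparison with PBS. Chil3 in this list was at 0 in 1 library. Neutrophil markers, 6 of 9 in the table, summed to between 1033 and 1494 in PBS, 1523 and 6173 in bleomycin and 2145 and 3089 in celastrol libraries, and 1 of 6 rose for bleomycin and 2 of 6 for celastrol against PBS. Those were S100a8 and S100a9, which the wound list also holds. The other 4 summed to between 1026 and 1494 in PBS, 1456 and 2148 in bleomycin and 1426 and 2122 in celastrol libraries, which overlapped, and 0 of 4 passed. Skeletal muscle markers summed to between 87116 and 112795 in PBS, 109847 and 187129 in bleomycin and 203215 and 274078 in celastrol libraries, with 1 of 11 and 5 of 11 higher than PBS and none at 0. Sebaceous markers summed to between 100866 and 132707 in PBS, 43150 and 72828 in bleomycin and 51296 and 141082 in celastrol libraries, with 2 of 12 and 3 of 12 lower. The highest sum, 141082 in Celastrol 5, was mostly Scd1 at 128083. In that library Scd1 and Pparg were at their highest of all libraries. Far2, Elovl3, Awat1, Awat2 and Dgat2l6 were at their lowest there, and the rest lay between. The part of these cell types in the changes of the ligands and receptors was not tested, and in bulk skin fewer cells of a type and less RNA per cell cannot be told apart.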

How the data were processed

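The deposited table holds, for each gene in each library, a linear signal divided by a size factor. The title of the deposited table names the poscounts form of DESeq2, and STAR 2.7.3a, Partek 10.0.22 and mm10 are named in the submitters' processing notes. The counter, annotation and strand setting are not given in the sources used here. Divided by the value of a single read, 58.9% to 67.6% of genes under 1000 reads came out whole within 0.03, so no count model was fitted. Library depth, estimated from the value of a single read, lay between 14944800 and 37077800 reads, and the shallowest libraries were Celastrol 2, Celastrol 3 and Bleomycin 3.

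Tests covered the 23185 of 24612 genes whose value reached 10 in 2 or more libraries, with limma 3.58.1 in R 4.3.3, on log2 of the value plus 1, with all 8 libraries in one fit, no covariate, eBayes with a mean-variance trend, two-sided tests and Benjamini-Hochberg adjustment over all genes. Alternatives covered the pseudocount, filter, scaling, samples in the fit, trend, library weights, replicate block, exon length and leaving out libraries. The procedure was run on simulated data with known changes, in which values varied independently between libraries and genes. Effects shared by many genes of a library were not part of that check. Exon lengths came from GENCODE M21, which 23752 genes matched by symbol and position, and the table's end coordinates were lowered by 1 to fit it.

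The members and lists were chosen with earlier results of these data known. All members were named, as were pathway genes past the threshold and those with the smallest p of each list (2 for bleomycin against PBS, 1 for each other comparison). Labels do not say that libraries of a group came from separate experiments. Of the 5 genes most like Epgn in pattern (highest Pearson r, mean of at least 50), 1 is not reported here.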

Additional observations from a re-analysis of the deposited data

How the results depend on the processing

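With 2 or 3 libraries a group, and 56 reads as the lowest estimate for Epgn and Hbegf, intervals are wide, and the cause of the shifts below was not tested. Of the 19 alternatives, 8 kept the Epgn call for bleomycin against PBS, and its change stayed between 1.70 and 2.86. It was not called with a pseudocount of 0.5 (adjusted p = 0.0541 in limma), with only the groups compared in the fit (0.0907), with no mean-variance trend (0.281), or without Bleomycin 3, Celastrol 2 and Celastrol 3, the shallowest libraries (0.269). With library weights, Areg at 1.93, Ereg at -0.80, Hbegf at 2.09, Btc at -1.06 and Egf at 1.15 also passed.

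The number of genes past the threshold moved more. For bleomycin against PBS (157) it was 7 with no trend, 711 with library weights, 113 (55 higher, 58 lower) with only the groups compared, 0 without the 3 shallowest libraries, and 16 to 229 when single libraries were left out. For celastrol against PBS (317) it was 19 with no trend, 4 without those 3 libraries and 38 to 418 when single libraries were left out. For celastrol against bleomycin (0) it was 2 with no trend and 0 to 1 when single libraries were left out. Lengths of the longest transcript gave medians per kb of 118 for Hbegf, 185 for Tgfa and 69.4 for Egf, and the other 7 moved by less than their SD.

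With the replicate number as a block, 17, 41 and 0 genes passed for bleomycin against PBS, celastrol against PBS and celastrol against bleomycin. Epgn then stood at 2.07 (limma, adjusted p = 0.366), and for celastrol against bleomycin Tgfa stood at -0.065 and Erbb3 at -0.073. The numbers were not taken as pairs: deviations of same-numbered libraries from their group means correlated at between -0.00485 and 0.203 over the 6 pairs. Libraries of different number and group correlated at between -0.203 and 0.123. The deviations of PBS 2 and PBS 3 mirror each other, so these correlations are not all independent. Whether libraries of the same number share a factor was not tested.

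Changes of sign arose in values that had not passed. For celastrol against bleomycin, Egfr was -0.10 with quantile normalization, -0.027 with library weights and -0.13 without the 3 shallowest libraries, Hbegf -0.11 and Erbb2 0.046 with library weights, and Erbb3 -0.032 without those 3. Leaving out single libraries gave, in that comparison, Areg -0.20 to 0.78, Hbegf -0.32 to 0.46, Egfr -0.054 to 0.082, Erbb2 -0.45 to 0.31, Btc -0.055 to 0.37 and Erbb3 -0.10 to 0.38. For bleomycin against PBS it gave Erbb2 -1.17 to 0.041 and Erbb3 -0.62 to 0.083. For celastrol against PBS it gave Erbb3 -0.52 to 0.18 and Ereg -0.16 to 0.39.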
